A study of Mus musculus with 2 samples.

Results

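Cells of mouse bone marrow that carry transcripts of the complement component C1q were described in 2 droplet-based single-cell libraries, 1 per group. A barcode was taken as a cell with at least 1000 unique molecular identifiers (UMIs, counts of captured transcripts) and under 10% of them mitochondrial. It entered the C1q gate with at least 3 UMIs and at least 10 per 10000 UMIs of C1qa, C1qb and C1qc together, and under 5% of its UMIs from S100a8 and S100a9. The gate held 568 of 23794 kept cells: 71 of 13251 in the control library, or 0.536% (exact 95% Clopper-Pearson interval 0.419 to 0.675), and 497 of 10543 in the MYC library, or 4.71% (4.32 to 5.14). Intervals throughout account for the error of counting alone. Each group had 1 library, so the groups could not be tested against each other and no p-value is given.

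The control library came from the genotype Mx1Cre+/-;Rosa26+/+ and the MYC library from Mx1Cre+/-;Rosa26LSL-MYC/LSL-MYC, so both groups carried the Cre transgene. The Mx1 promoter that drives this Cre responds to interferon and is active in many cell types besides stem cells. LSL-MYC is a MYC transgene in the Rosa26 locus behind a stop cassette that Cre removes, and the series asked what its expression in stem cells does to marrow transcripts. Age, sex, the inducing treatment and the number of mice behind each library are not given in the sources used here.

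The label of macrophage was checked against Vcam1, an adhesion molecule of marrow resident macrophages, and Adgre1, which encodes the macrophage surface protein F4/80. In the control library 50.7% of gated cells had a Vcam1 UMI and 60.6% an Adgre1 UMI. In the MYC library these shares were 6.44% and 39.03%. B lineage cells, which should lack both, had a Vcam1 UMI in 2.47% and 4.11% of cells and an Adgre1 UMI in 3.22% and 2.05%, at median depths of 4806 and 4919.5 UMIs against 6118 and 7012 in the gate. In the MYC library the Vcam1 share was thus near that background, which goes against a resident macrophage label, while the Adgre1 share was above it. Nonclassical monocytes outside the gate had an Adgre1 UMI in 36.6% and 58.3% of cells, in the MYC library a larger share than in the gate. The members are called C1q-expressing cells below. Shares of cells in one library can also reflect how many cells of other types were captured.

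The libraries held 131884603 and 110012176 UMIs, and the gate 442379 and 3568008. A gene was compared with at least 50 UMIs over both libraries, so it could pass through 1 library alone. Of the 877 genes at least 2-fold higher in the MYC gate 776 had fewer than 50 UMIs in the control gate, and of the 686 lower genes 174 had fewer than 50 in the MYC gate. Counts and medians of lists below are therefore descriptions. The RNA feature Gm42418, which shares sequence with ribosomal RNA, took a median of 29.6% of the UMIs of a gated control cell, against 19.6% for the MYC library, and the split of genes with it left out of the totals is given below. The libraries shared 97 barcode sequences, of which 2 were gated in either library and 0 in both. C1q UMIs were also more frequent in cells that should lack the gene: 2.89% of control and 17.1% of MYC-library B lineage cells had a C1q UMI, at 4.99 and 41.8 C1q UMIs per 1000000 (CPM). In the gate C1q stood at 5434 and 5750.0 CPM, and the gate held 79.7% and 85.6% of all C1q UMIs of the kept cells.

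C1q is the recognition part of the classical complement pathway, and its 3 chains are made mainly by macrophages and related myeloid cells. Marrow resident macrophages support erythroblasts, engulf expelled nuclei and dying cells, and take haem apart: Hmox1 opens the haem ring, ferritin stores the iron, and Slc40a1 (ferroportin) exports it. Other marrow C1q-expressing cells can derive from Ccr2-bearing classical monocytes or resemble nonclassical monocytes, which patrol vessels and carry the low-affinity immunoglobulin receptor Fcgr4.

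The C1q genes lie together on the minus strand of mouse chromosome 4 (GRCm38), with C1qb at chr4:136880129-136886187, C1qc at chr4:136889804-136893065 and C1qa at chr4:136895917-136898803. Fcgr4 lies on the plus strand at chr1:171018920-171029761. The stretches before the starts of C1qb, C1qc and Fcgr4 are shown because C1q chose the cells and Fcgr4 marks most of those in the MYC library. They are from RefSeq (GRCm38.p6), at chr4:136886201-136886450, chr4:136893066-136893164 and chr1:171018676-171018919, 5′ to 3′ on the strand of the gene, and bases that overlap annotated transcripts were left out. Capitals mark the core motif of the myeloid factor PU.1, searched as GAGGAA or TTCCTC.
C1qb: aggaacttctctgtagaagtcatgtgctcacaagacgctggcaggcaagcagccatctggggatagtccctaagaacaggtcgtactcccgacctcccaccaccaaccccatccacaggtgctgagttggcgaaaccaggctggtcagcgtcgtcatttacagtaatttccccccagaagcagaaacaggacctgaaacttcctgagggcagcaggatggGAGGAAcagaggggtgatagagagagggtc
C1qc: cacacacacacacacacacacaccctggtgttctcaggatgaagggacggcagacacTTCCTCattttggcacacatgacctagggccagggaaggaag
Fcgr4: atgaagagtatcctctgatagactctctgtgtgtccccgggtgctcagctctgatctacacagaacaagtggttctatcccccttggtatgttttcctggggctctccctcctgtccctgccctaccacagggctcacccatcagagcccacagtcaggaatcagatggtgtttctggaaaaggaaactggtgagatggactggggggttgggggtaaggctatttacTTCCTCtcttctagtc
Its first match begins 43 bases before the start of C1qb, 42 before that of C1qc and 16 before that of Fcgr4, counted from the gene coordinates above. Of 32851 RefSeq promoters, 23.3% hold these letters in the 250 bases before the RefSeq start, a longer window than the 99 bases of C1qc and the 244 bases of Fcgr4. Of the other promoters searched, that of Mrc1 holds 3 matches, and those of Mertk and Cd300e hold 0. A match is a description only. Spi1, which encodes PU.1, was at 312 CPM in the gated cells of the control and 398 CPM in those of the MYC library.

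The C1q chains took different shares of the C1q UMIs in the libraries. Together they chose the cells, but their balance was not part of the rule. C1qa made up 42.0% (95% interval 39.99 to 44.0) of the 2404 C1q UMIs in the control gate and 28.2% (27.5 to 28.8) of the 20516 in the MYC gate. C1qb was at 30.8% (29.0 to 32.7) and 44.4% (43.8 to 45.1), and C1qc at 27.2% and 27.4%. The C1qa and C1qb intervals of the libraries do not overlap, and those of C1qc do. The order held within the sets of cells described next: C1qb was at 27.4% in control and 37.3% in MYC-library Vcam1 cells, and at 36.5% and 44.8% in Fcgr4 cells. These are counts of transcript 3′ ends, so shares are compared between libraries and not between chains.

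**Figure D1:**
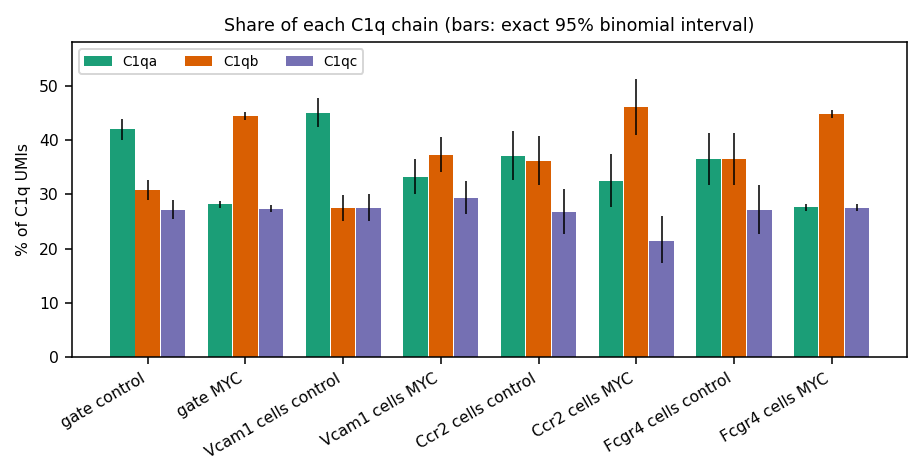
Share of C1q UMIs from each of the C1qa, C1qb and C1qc genes, in %, over all gated cells and in 3 sets of them, for the control and the MYC library, with exact 95% binomial intervals. C1qb is higher in the MYC library in each pair, from 30.8% to 44.4% over the whole gate.

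The gate held different mixtures of cells in the libraries. Cells were split by rule, chosen after the values had been seen: at least 2 UMIs and 5 per 10000 of Vcam1 made a Vcam1 cell, the same of Ccr2 in what was left a Ccr2 cell, and of Fcgr4 in what was left an Fcgr4 cell. There were 26 Vcam1 cells among the controls against 12 from the MYC library, which is 0.196% and 0.114% of kept cells (ratio 0.580, 95% interval 0.267 to 1.19). Ccr2 cells numbered 20 and 12, or 0.151% and 0.114% (ratio 0.754, 0.336 to 1.62). Fcgr4 cells numbered 12 and 412, or 0.0906% and 3.91% of kept cells, a ratio of 43.2 (24.4 to 84.2). The intervals of the first and second ratio include 1, and the larger gate of the MYC library consisted for the most part of Fcgr4 cells. The remaining 13 and 61 cells passed none of the limits and had medians of 1362 and 2224 UMIs, with highest values of 11188 and 12634.

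**Figure D2:**
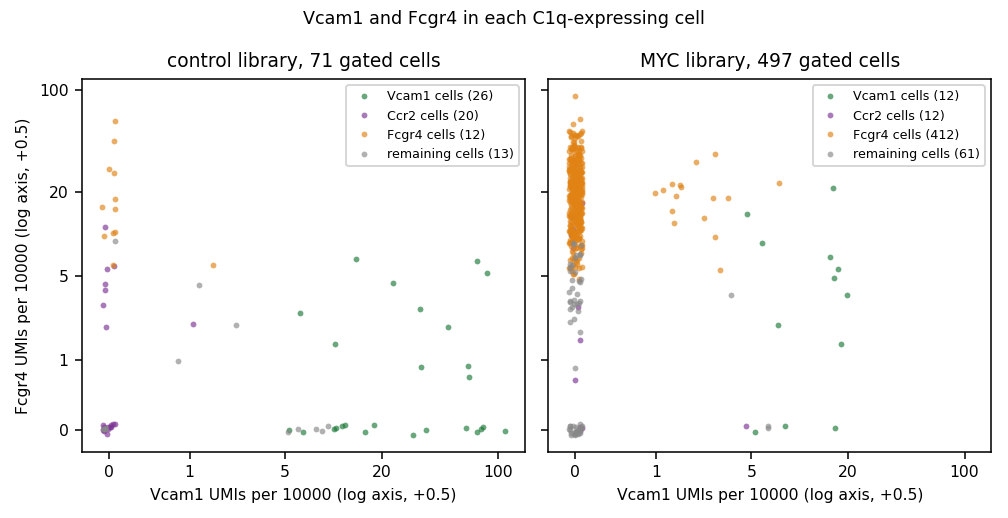
Vcam1 against Fcgr4 in each gated cell, in UMIs per 10000 on log axes with 0.5 added and points spread slightly, for the control (71 cells) and the MYC library (497 cells), coloured by set. Control cells lie along both axes, whereas 412 cells of the MYC library lie high on the Fcgr4 axis with little or no Vcam1.

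Vcam1 per cell reached 113 UMIs per 10000 in control cells, against 21.8 with MYC. Among Vcam1 cells the lowest, median and highest values were 5.25, 30.9 and 113 for controls, against 5.11, 14.98 and 21.8 for the MYC library. The ranges overlap, and the lower end is set by the rule. Fcgr4 had a median of 0 and a highest value of 61.5 over all control gated cells, against a median of 17.1 and a highest of 86.9 in the MYC library. Near the limit of 5 per 10000, 3 control and 3 MYC-library cells with at least 2 Vcam1 UMIs held 5 to 7 per 10000, and 2 further cells of each library held this with 1 UMI. For Fcgr4 these were 5 control and 20 MYC-library cells, and 0 and 7 with 1 UMI.

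With every cell thinned to 1000 UMIs, 38.0% of control and 3.62% of MYC-library gated cells kept a Vcam1 UMI (95% intervals 26.8 to 50.3 and 2.16 to 5.66). For Fcgr4 the shares were 19.7% (11.2 to 30.9) and 76.3% (72.3 to 79.9), and unthinned B lineage cells had a UMI of it in 3.75% and 10.3% of cells. An Slc40a1 or Spic UMI was kept by 38.0% and 2.82%, and a Ly6c2 or Ccr2 UMI by 33.8% and 13.1%. The unthinned shares were 50.7% and 6.44% for Vcam1, 49.3% and 93.2% for Fcgr4, 64.8% and 13.9% for Slc40a1 or Spic, and 52.1% and 38.6% for Ly6c2 or Ccr2. Thinning left out 0 cells. Of the last pair, Ccr2 alone was kept by 26.8% and 5.43% and Ly6c2 alone by 7.04% and 8.45%. Vcam1, Slc40a1 or Spic, and Ccr2 were thus found in a smaller share of the MYC-library cells, and Fcgr4 in a larger one.

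The resident program was lower in the gated cells of the MYC library. Of 6716 genes with at least 50 UMIs, 13.1% were at least 2-fold higher in the MYC library and 10.2% at least 2-fold lower, with a median log2 ratio of 0.05. When S100a8, S100a9, Gm42418, haemoglobin and mitochondrial genes were left out of the totals, that median was -0.14, and higher genes made up 41.9% of the called genes in place of 56.1%. Ratios of lists and figures are of CPM + 1, and folds of single genes are of CPM. Of the 30 resident genes, 20 had 50 UMIs: 14 were at least 2-fold lower, 1 (Fcgr4) was higher, and the median log2 ratio was -1.79.

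Vcam1 was at 1826 CPM in control cells against 37.6 CPM in the MYC gate, 48.6-fold (95% interval 40.5 to 58.8) lower. Adgre1 was at 312 and 91.1 CPM, 3.42-fold (95% interval 2.79 to 4.19) lower. Mertk, a receptor for dying cells, stood at 242 and 8.41 CPM, 28.8-fold (95% interval 19.04 to 44.7) lower. The mannose receptor Mrc1 was at 821 and 33.1 CPM and the growth factor Igf1 at 292 and 4.20 CPM. Igf1 was 69.4-fold (95% interval 40.5 to 128) lower, and its level in the MYC gate rested on 15 UMIs. Maf, a transcription factor of differentiated macrophages, was at 899.7 and 60.5 CPM. Fcna, a lectin of the complement system, was at 527 and 23.8 CPM, with 52.9% of the MYC-library UMIs in 1 cell, and the phospholipase D family member Pld3 at 316 and 11.8 CPM.

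Some resident genes differed less in their sums. Apoe, the lipid carrier, was at 2934 and 1735 CPM, 1.69-fold (95% interval 1.59 to 1.80) lower. Per cell it had a median of 21.1 UMIs per 10000 in control and 1.74 in MYC-library gated cells and highest values of 143 and 366, and at 1000 UMIs a cell it was kept by 70.4% and 36.6% of cells. By the median cell Apoe was thus further below the control than by the sums. Cd68, a lysosomal glycoprotein, was at 375 and 262 CPM. The integrin Itgad was at 102 and 119.7 CPM, with a ratio interval that includes 1. Pparg, a lipid-sensing nuclear receptor, was at 102 and 154 CPM. Timd4, Marco, Folr2, Lyve1, Id1, Id3, Clec4f, Vsig4, Siglec1 and Cd163 had fewer than 50 UMIs. Cd163, the haemoglobin scavenger receptor, had 34 control UMIs, 76.5% of them in 1 cell, and 0 in the MYC gate, which is at least 91.4-fold lower against a floor of 3 counts over the group.

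**Figure D3:**
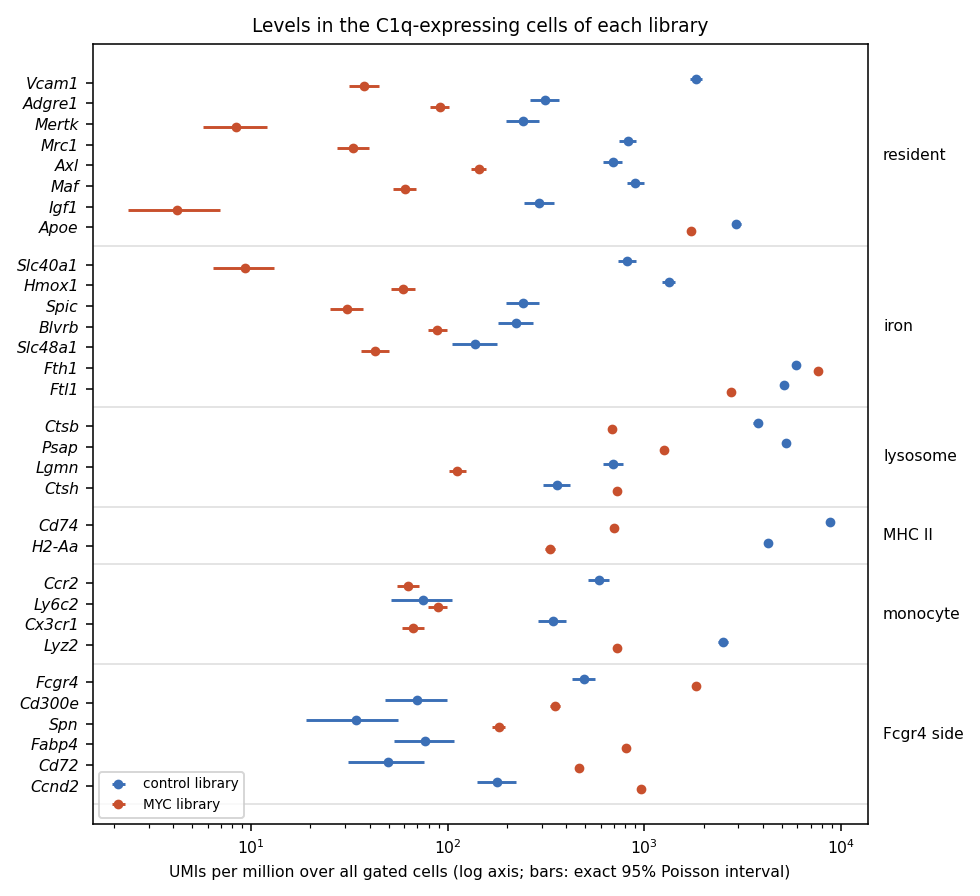
Level of genes of 6 groups in the gated cells of the control and the MYC library, in CPM on a log axis with exact 95% Poisson intervals. Vcam1, Slc40a1, Hmox1 and Mrc1 lie far lower in the MYC library, Fth1 lies slightly higher, and Fcgr4, Cd300e, Spn, Fabp4, Cd72 and Ccnd2 lie higher.

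Without Vcam1 and Fcgr4, which chose the sets, the other 28 resident genes summed to 15098 CPM in control and 24569 CPM in MYC-library Vcam1 cells, against 5476 and 2904 CPM in Fcgr4 cells. Their sum was highest in the Vcam1 cells of both libraries. Apoe alone gave 3585 and 14636 CPM of the Vcam1-cell sums. The larger sum of the MYC library is therefore not read as a higher resident program. Within the Vcam1 cells 577 genes had 50 UMIs, of which 16.5% were at least 2-fold higher in the MYC library and 11.1% lower. Of 17 resident genes among them, 3 were higher and 3 lower, with a median log2 ratio of -0.40. Mertk was at 502 CPM in control and 163 CPM in MYC-library Vcam1 cells, the latter from 13 UMIs with 61.5% of them in 1 cell, and Mrc1 at 1623 and 851 CPM. Cd5l, a scavenger protein of tissue macrophages, was instead at 642 and 2677 CPM, with 47.3% and 51.4% of its UMIs in 1 cell of each library, and Apoe at 3585 and 14636 CPM. Csf1r, the receptor of the macrophage growth factor, was at 525 and 563 CPM there. The MYC-library values rest on 12 cells with 79939 UMIs.

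In the Fcgr4 cells 5820 genes had 50 UMIs, 22.8% of them at least 2-fold higher in the MYC library and 13.2% lower. Of 15 resident genes there, 2 were higher and 8 lower, with a median log2 ratio of -1.15. Maf was at 508 CPM in control and 43.9 CPM in MYC-library Fcgr4 cells, Mrc1 at 357 and 11.95 CPM, and Axl, a receptor for dying cells, at 329 and 127 CPM. Fcgr4 itself, fixed in part by the rule, was at 2141 and 2040.3 CPM. The control values rest on 12 cells with 72863 UMIs. Clustering of the gated cells, described below, placed most of them in different clusters by library: the clusters led by Scel and by Bcl11a held 136 and 132 of the 412 MYC-library Fcgr4 cells but 1 and 0 of the 12 control ones, of which 5 lay in a cluster with Clec1b and Adamdec1 among its leading genes and 4 in the one led by Fcna. Erythroid genes were higher in the MYC-library Fcgr4 cells for 4 of 8 and lower for 0 (median log2 ratio 1.60, sums of 2099.8 and 9460 CPM), and their part in the differences was not tested. The median of Hbb-bs per cell was 7.11 and 4.89 per 10000.

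The iron-recycling program differed most in its export and haem-breakdown genes. Of 26 iron genes, 22 had 50 UMIs: 10 were at least 2-fold lower in the MYC gate and 0 higher, with a median log2 ratio of -0.77. Slc40a1, the iron exporter, was at 814 CPM in control cells against 9.25 CPM in the MYC gate, where 21 of its 33 UMIs lay in the 12 Vcam1 cells. In the Fcgr4 cells of the MYC library its level was below the 11.8 CPM of the B lineage cells. Hmox1 was at 1327 and 59.1 CPM, 22.4-fold (95% interval 19.1 to 26.4) lower. Spic, the transcription factor of iron-recycling macrophages, was at 242 and 30.5 CPM, 7.92-fold (95% interval 6.01 to 10.4) lower.

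Among the other iron genes some were lower, and 12 of the 22 in the list lay within 2-fold. The haem transporter Slc48a1 was at 138 and 42.6 CPM and Blvrb, a biliverdin reductase, at 222 and 88.3 CPM. Ncoa4, which delivers ferritin to the lysosome, was at 165 and 34.2 CPM, and the phagosomal metal transporter Slc11a1 at 203 and 94.5 CPM. Lrp1, a receptor that takes up haem bound to haemopexin, was at 296 and 44.6 CPM. The ferritin heavy chain Fth1 was at 5936 and 7629 CPM, 1.29-fold (95% interval 1.23 to 1.34) higher, while the light chain Ftl1 was at 5116 and 2762 CPM. The regulators Nfe2l2 and Bach1 stood at 167 and 183 CPM and at 136 and 147 CPM, with ratio intervals that include 1. Trf, the plasma iron carrier transferrin, was at 567 and 38.4 CPM.

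Slc40a1 and Hmox1 were highest in the Vcam1 cells of both libraries. Slc40a1 was at 1950.0 CPM in control and 263 CPM in MYC-library Vcam1 cells, 7.42-fold (95% interval 4.78 to 12.2) lower, against 54.9 and 2.26 CPM in Fcgr4 cells. A UMI of it was found in 21 of 26 control and 6 of 12 MYC-library Vcam1 cells. Hmox1 was at 3188 and 1038 CPM in Vcam1 cells, 3.07-fold (95% interval 2.43 to 3.92) lower, with 36.6% and 47.0% of the UMIs in 1 cell of each library. Both genes were lower in the MYC library among the Vcam1 cells also. There 4 of 13 iron genes were at least 2-fold lower, against 11.1% of all genes, and 0 higher, against 16.5%. Erythroid genes were also lower in the same cells, 4 of 4 with 50 UMIs (median log2 ratio -3.32), with sums of 13457 and 1226 CPM, and their part in the result was not tested. The sums rest on few cells: 1 control cell held 51.3% of the UMIs of the globin gene Hbb-bs, whose median was 7.49 and 5.33 per 10000. Fth1 in Vcam1 cells was at 5412 and 8231 CPM.

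Some of the genes for the uptake of dying cells and for lysosomal digestion were lower too. Of 25 efferocytosis genes 13 had 50 UMIs, with 6 at least 2-fold lower, 0 higher and 7 within 2-fold (median log2 ratio -0.82). Besides Mertk, Axl and Lrp1, these were the phagocytic integrin Itgb5, the lysosomal nuclease Dnase2a and the cholesterol exporter Abca1, at 145 and 17.4 CPM. Abcg1, another sterol exporter, was at 244 and 268 CPM and Rac1, which drives engulfment, at 197 and 219 CPM, with intervals that include 1. Of 30 lysosome genes 27 had 50 UMIs, with 14 lower and 1 (Ctsh) higher (median -1.06). Cathepsin B (Ctsb) was at 3764 and 684 CPM, 5.50-fold (95% interval 5.17 to 5.86) lower, prosaposin (Psap) at 5276 and 1261 CPM, and legumain (Lgmn) at 694 and 112 CPM. Cathepsin H (Ctsh) was at 357 and 728 CPM, 2.04-fold (95% interval 1.73 to 2.41) higher. In Vcam1 cells 1 of 19 lysosome genes was at least 2-fold lower, with Ctsb at 6358 and 5304 CPM. In Fcgr4 cells 11 of 26 were lower and 2 higher, against 13.2% and 22.8% of all genes there. Ctsb was at 1990.0 and 566 CPM in these cells.

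**Figure D4:**
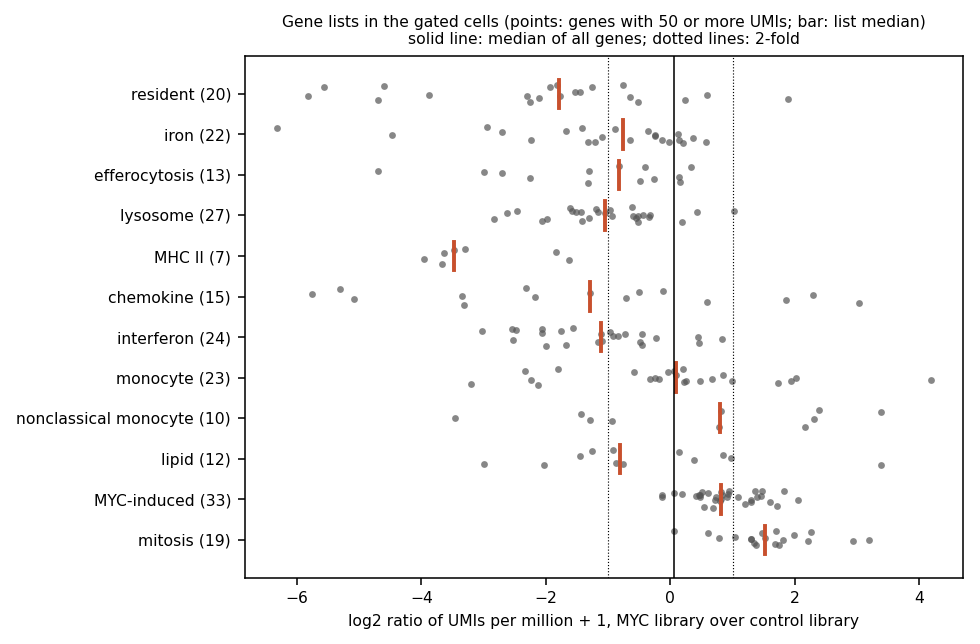
Log2 ratio of CPM + 1, MYC over control library, for each gene with at least 50 UMIs in the gated cells (points) in 12 lists, with list medians (bars), the median of all genes (solid line) and 2-fold limits (dotted lines). The MHC II, resident, chemokine, interferon and lysosome medians lie at -1.06 or lower, and those of the MYC-induced and mitosis lists at 0.81 and 1.53.

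Genes of antigen presentation by MHC class II were lower in the MYC gate without exception among those measured. Of 10 genes 7 had 50 UMIs, and all 7 were at least 2-fold lower, with a median log2 ratio of -3.47. The invariant chain Cd74 was at 8750.4 and 702 CPM, 12.5-fold (95% interval 11.8 to 13.1) lower, and the class II chain H2-Aa at 4252 and 332 CPM. Ciita, the regulator of these genes, was at 167 and 9.81 CPM. B lineage cells, which express class II genes, held H2-Aa at 1185 and 2145 CPM.

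In both libraries the class II genes were highest in the Ccr2 cells, and most of those measured were lower in the MYC library in each set. Cd74 was at 15174 CPM in control and 6059 CPM in MYC-library Ccr2 cells, at 5792 and 2902 CPM in Vcam1 cells, and at 3239 and 375 CPM in Fcgr4 cells. At least 2-fold lower were 5 of 7 genes in Ccr2 cells, 3 of 5 in Vcam1 cells and 4 of 6 in Fcgr4 cells. Over all genes of these sets 7.18%, 11.1% and 13.2% were lower. Outside the gate H2-Aa was also lower in classical monocytes, at 276 and 82.3 CPM.

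Among monocyte genes some were higher and some lower. Of 24 genes 23 had 50 UMIs, with a median log2 ratio of 0.09. In the MYC gate 4 (17.4%) were at least 2-fold higher, against 13.1% of all genes, and 5 (21.7%) lower, against 10.2%. The higher share was thus near that of all genes. Ccr2, the receptor that brings monocytes out of the marrow, was at 588 and 62.8 CPM, 9.36-fold (95% interval 7.80 to 11.2) lower. Cx3cr1, the fractalkine receptor, was at 341 and 66.7 CPM, the lysozyme gene Lyz2 at 2523 and 723 CPM, and Irf8, a monocyte transcription factor, at 402 and 91.4 CPM. The endotoxin co-receptor Cd14 was at 56.5 and 11.2 CPM. Higher were fibronectin (Fn1, 20.3 and 69.5 CPM), S100a4 (99.5 and 406 CPM), S100a10 (15.8 and 63.1 CPM) and Vcan, a matrix proteoglycan. Vcan had 0 control UMIs and 17.1 CPM in the MYC gate, at least 2.52-fold higher. Ly6c2, the classical monocyte marker, was at 74.6 and 88.8 CPM, below the 106 and 105 CPM of B lineage cells, and its shares of cells are read as background.

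The monocyte genes were also compared within the Ccr2 cells, where 599 genes had 50 UMIs, 18.9% at least 2-fold higher in the MYC library and 7.18% lower. Of 16 monocyte genes there, 8 were higher and 1 lower, with a median log2 ratio of 1.14. S100a4 was at 244 and 1415 CPM, Fn1 at 32.1 and 815 CPM, F13a1, a clotting factor chain of monocytes, at 154 and 469 CPM, and Ly6c2 at 135 and 584 CPM. In classical monocytes outside the gate S100a4 was at 1011 and 1607 CPM, and Ly6c2 at 1849 and 1646 CPM. For some genes a single cell held most of these UMIs: 71.4% for Ly6c2 and 80.0% for Fn1 in the control, and 52.7% for S100a4 in the MYC library. Of the resident genes, Maf was at 514 and 7.69 CPM, the latter from 1 UMI, and Axl at 308 and 99.97 CPM in Ccr2 cells.

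Genes of nonclassical monocytes differed in both directions. Of its 12 genes 10 had 50 UMIs in the gate, with 4 at least 2-fold higher in the MYC library, 3 lower and a median log2 ratio of 0.80. Over all genes 13.1% were higher and 10.2% lower. The 4 were Cd300e, Spn, Eno3 and Fabp4, and the 3 were Treml4, Itgal and Cd300a. The immune receptor Cd300e was at 70.1 and 351 CPM, 5.02-fold (95% interval 3.52 to 7.41) higher, and Spn, the sialoglycoprotein CD43, at 33.9 and 181 CPM. Fabp4, a fatty acid carrier, was at 76.9 and 807 CPM, 10.5-fold (95% interval 7.50 to 15.2) higher. Treml4 and the integrin chain Itgal were lower, at 90.4 and 7.29 CPM and at 51.99 and 18.5 CPM. Within the Fcgr4 cells of both libraries 9 of the genes had 50 UMIs, with 1 at least 2-fold higher in the MYC library, 4 lower and a median of -0.42, the opposite sign from the whole gate. Fcgr4, which is counted with the resident genes, was at 493 CPM in control cells against 1829 CPM in the MYC gate, 3.71-fold (95% interval 3.24 to 4.27) higher.

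Set beside the 48 nonclassical monocytes of the MYC library outside the gate, its 412 Fcgr4 cells differed in both directions. Those monocytes were chosen by Ace, Adgre4, Treml4 and Cd300e and lie outside the gate by their low C1q, so these genes, C1q and Fcgr4 are given as description only. Of 6071 genes with 50 UMIs, 13.6% were at least 2-fold higher in the Fcgr4 cells and 7.76% lower. Of the 12 nonclassical genes 0 were higher and 9 lower, with a median log2 ratio of -1.80. Without the 4 genes that chose the monocytes, 0 of 8 were higher and 6 lower, with a median of -1.50. Erythroid genes were higher in the Fcgr4 cells for 7 of 9 (median 2.45, sums of 1304 and 9460 CPM) and mitosis genes for 17 of 18 (median 2.16), and their part in the differences was not tested. The 18 mitosis genes each had 30 UMIs or fewer in the monocytes, so they were compared only through the Fcgr4 cells. The erythroid sum rests on few cells: Hbb-bs had a median of 4.89 and a highest value of 2220.1 per 10000 in the Fcgr4 cells, where 1 cell held 3414 of its 16355 UMIs. Ace, a peptidase of nonclassical monocytes, was at 408 CPM in the monocytes and 1.62 CPM in the Fcgr4 cells, while Cd300e was at 347 and 378 CPM. Among genes that the choice did not use, Itgal was at 580.1 and 16.5 CPM, 35.2-fold (95% interval 25.7 to 49.03) lower in the Fcgr4 cells. The scavenger receptor Cd36 was at 178 and 4.52 CPM. The factors Klf4 and Cebpb, which act in monocyte development, were at 389 and 13.6 CPM and at 969 and 89.2 CPM. Csf1r was at 484 and 89.2 CPM, Cx3cr1 at 325 and 59.4 CPM, and Lyz2 at 2623 and 376 CPM.

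Without Fcgr4, which chose the cells, 7 of 13 resident genes were at least 2-fold higher in the Fcgr4 cells than in these monocytes and 1 lower, with a median log2 ratio of 1.16. Axl had 0 UMIs in the 48 monocytes and 127 CPM in the Fcgr4 cells. Nr1h3, a sterol-sensing nuclear receptor, was at 12.7 and 84.3 CPM, and Itgad at 12.7 and 120.5 CPM. The adhesion molecule Cadm1 was at 28.7 and 312 CPM, 10.9-fold (95% interval 5.71 to 23.9) higher. Tcf7l2, a factor of Wnt signalling, was at 182 and 496 CPM, and Cd72, a receptor best known from B cells, at 124 and 507 CPM. Pou2f2, the Oct-2 factor, was at 1157 and 1364 CPM, less than 2-fold apart. Of the genes that chose neither group, Pou2f2 was thus close in both, and the groups differed in Itgal, Cd36, Klf4, Axl, Nr1h3, Itgad and Cadm1. Axl, Nr1h3, Itgad and Cadm1 had 0, 4, 4 and 9 UMIs in the monocytes. They were thus compared only through the Fcgr4 cells and are given as description. The 12 control Fcgr4 cells held Itgal at 41.2 CPM and Axl at 329 CPM.

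**Figure D5:**
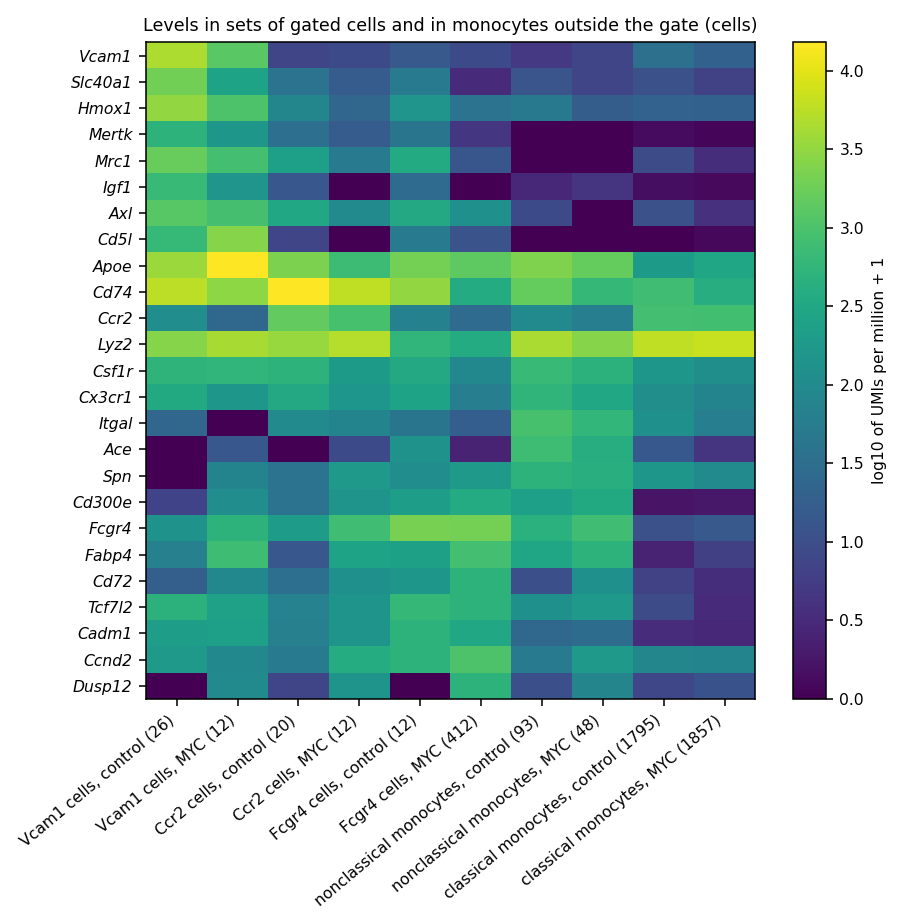
Level of genes named in the text as log10 of CPM + 1 (colour) in the Vcam1, Ccr2 and Fcgr4 sets of gated cells and in nonclassical and classical monocytes outside the gate, for each library, with cell numbers in parentheses. Vcam1, Slc40a1 and Hmox1 are high in Vcam1 cells, Fcgr4, Cd72, Cadm1 and Tcf7l2 in Fcgr4 cells of both libraries, and Itgal and Ace in nonclassical monocytes.

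Receptors for immunoglobulin G, which bind antibody-coated particles, also differed in both directions: Fcgr4 was higher in the MYC gate, and Fcgr1, Fcgr2b and Fcgr3 were lower. The shared signalling chain Fcer1g was at 1557 and 3374 CPM, 2.17-fold (95% interval 2.01 to 2.34) higher. The inhibitory receptor Fcgr2b was at 208 and 14.9 CPM, 14.001-fold (95% interval 9.88 to 20.02) lower, Fcgr3 at 251 and 39.5 CPM, and the high-affinity receptor Fcgr1 at 154 and 42.9 CPM. In Fcgr4 cells Fcgr2b was at 178 and 6.78 CPM and Fcgr3 at 96.1 and 30.04 CPM. Fcgr2b, Fcgr3, Fcer1g, Gm26620 and Fam89a were added after their values were seen, or named by likeness to C1q.

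The genes furthest above the control, by the naming rule, were Dusp12, Fabp4, Cd72, Fcrl5, Stmn1, Pycard, Ccnd2, Mpc2, Spn, Samsn1, Cd300e and Ccl4. Dusp12, a dual-specificity phosphatase, had 1 UMI in the control gate and 1654 in the MYC gate (2.26 and 464 CPM), a ratio of 205 (95% interval 36.8 to 8105). Gm26620, annotated at chr1:170885065-170885881 on the plus strand, overlaps the 5′ end of Dusp12 at chr1:170873498-170885540 on the minus strand. It was at 4.52 and 136 CPM. Whether strand was used in counting is not given in the sources used here. Whether reads of one gene were counted for the other was not tested. Outside the gate Dusp12 was at 9.68 CPM in control and 79.7 CPM in MYC-library nonclassical monocytes, and at 6.88 and 10.5 CPM in classical monocytes. Cyclin D2 (Ccnd2), which drives entry into the cell cycle, was at 179 and 961 CPM, 5.38-fold (95% interval 4.31 to 6.81) higher. Pycard, the inflammasome adaptor ASC, was at 169.5 and 1003 CPM, and Cd72 at 49.7 and 463 CPM.

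Within the Fcgr4 cells, most of which fell in different clusters by library, Cd72, Fcrl5, Ccnd2, Pycard and Fabp4 were less far apart than in the whole gate. Cd72 was at 165 CPM in control and 507 CPM in MYC-library Fcgr4 cells, Fcrl5, an Fc receptor-like protein, at 219.6 and 325 CPM, and Ccnd2 at 508 and 1042 CPM. Pycard was at 384 and 1072 CPM and Fabp4 at 233 and 843 CPM. Dusp12 had 0 UMIs in the 12 control Fcgr4 cells and 504 CPM in those of the MYC library.

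The naming rule takes only genes whose 2 library levels average 100 CPM or more, and of those the furthest below the control were Slc40a1, Igf1, Vcam1, Cxcl9, Mertk, Pld3, Mrc1, Hmox1, Fcna, Slfn5, Maf and Trf. Cxcl9, a chemokine induced by interferon gamma, was at 206 and 4.20 CPM, with 53.8% of the control UMIs in 1 cell, and Slfn5, a Schlafen family member, at 285 and 17.9 CPM. Slfn5 was also lower in classical monocytes of the MYC library, at 188 and 69.9 CPM.

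More chemokine genes were lower than higher. Of 27 chemokine and cytokine genes 15 had 50 UMIs. In the MYC gate 3 were at least 2-fold higher, against 13.1% of all genes, and 8 lower, against 10.2%. The median log2 ratio was -1.30. Higher were Ccl3, Ccl4 and Ccl5, which attract T cells and monocytes. Ccl4 was at 74.6 and 367 CPM, with 51.5% of the control UMIs in 1 cell, Ccl3 at 40.7 and 149 CPM, and Ccl5 at 18.1 and 154 CPM. Among the lower were Cxcl9 and Cxcl10, which attract T cells, the monocyte attractant Ccl8, Cxcl16, and Il18bp, which neutralises interleukin 18. Cxcl10 was at 129 and 1.40 CPM, Ccl8 at 109 and 2.24 CPM, and Cxcl16 at 154 and 14.6 CPM. In Fcgr4 cells Ccl4 was at 316 and 412 CPM and Ccl5 at 13.7 and 168 CPM.

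Interferon-response genes were lower on the whole, inside and outside the gate. Of 32 genes 30 were among the features and 24 had 50 UMIs, with 13 at least 2-fold lower, 0 higher and a median log2 ratio of -1.11. The list summed to 4028 and 2546 CPM in the gate and to 2071 and 1277 CPM in all other kept cells. In classical monocytes it was at 3635 and 2079 CPM, and in nonclassical ones at 4096 and 2244 CPM. The lower level was thus not particular to the gated cells. The antiviral gene Rsad2 was at 188 and 31.4 CPM, 5.98-fold (95% interval 4.44 to 8.01) lower, and Ifi27l2a at 493 and 59.4 CPM, 8.29-fold (95% interval 6.83 to 10.1) lower. Ly6e, in contrast, was at 1094 and 1494 CPM, and Isg15, a ubiquitin-like modifier, at 56.5 and 101 CPM. The direction of Isg15 was reversed when cells with UMIs of other lineages were left out or a Vcam1 or Adgre1 UMI was required. Ifi27l2a was at 327 and 525 CPM in Vcam1 cells, where 95.2% of the MYC-library UMIs lay in 1 cell, at 137 and 21.6 CPM in Fcgr4 cells, and at 818 and 356 CPM in classical monocytes outside the gate. Its level in the MYC library was thus lower in Fcgr4 cells and classical monocytes.

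Some of the genes that MYC is known to induce were higher in the MYC gate. Of 38 genes 33 had 50 UMIs, with 12 at least 2-fold higher, against 13.1% of all genes, 0 lower, 21 within 2-fold and a median log2 ratio of 0.81. The list summed to 3260 and 5924 CPM in the gate and was higher outside it too. There it was at 6655 and 9409 CPM in classical and at 2474 and 4092 CPM in nonclassical monocytes. The nuclear transport factor Ran was at 70.1 and 252 CPM, 3.60-fold (95% interval 2.51 to 5.32) higher, and the nucleolar proteins Npm1 and Nop56 at 477 and 1017 CPM and at 29.4 and 98.7 CPM. Of 81 ribosomal protein genes, 61 were at least 2-fold higher and 0 lower, with a median of 1.38. In Fcgr4 cells 13 of 33 MYC-induced genes were higher, against 22.8% of all genes there, and 0 lower, against 13.2%. The list summed to 3596 CPM in the 72863 UMIs of the control Fcgr4 cells. Most of its genes were thus compared only through the MYC library. Ran was at 13.7 CPM, from 1 UMI, and 252 CPM in these cells. The transgene feature named MYC had 0 UMIs in the control gate and 10 in the MYC gate, all in Fcgr4 cells, against 312 over all kept cells of that library. Mouse Myc had 3 and 18 UMIs, so neither level supports a comparison.

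Mitosis genes were higher in sum. Of 20 genes 19 had 50 UMIs, with 16 at least 2-fold higher, 0 lower and a median of 1.53. When each cell counted equally, 8 were higher and 1 lower, with a median of 0.86. The 20 genes summed to 449.8 CPM in the control gate, which held 442379 UMIs. Most of them were thus compared only through the MYC gate. The proliferation marker Mki67 was at 104 and 302 CPM. At 1000 UMIs a cell, at least 2 mitosis UMIs were found in 11.3% of control gated cells (95% interval 4.99 to 21.0) and 19.9% of MYC-library ones (16.5 to 23.7), intervals that overlap. Unthinned, these shares were 59.2% and 69.2%. Among Fcgr4 cells the thinned shares were 1 of 12 and 67 of 412, against 3 of 48 nonclassical monocytes and 935 of 1857 classical monocytes of the MYC library.

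Genes with a pattern most like C1q were taken as the 15 with the highest ratio of their level in the MYC gate to that in all other kept cells of the MYC library, over this 1 library. After C1qc, C1qb and C1qa, which chose the cells, they were Klrb1b, Fcrl5, Negr1, Asb2, Tcf7l2, Fam89a, Cadm1, Axl, Cd300e, Itgad, Gm26620 and Bcl2a1d. Klrb1b, a lectin-like receptor gene, was at 106 CPM in the MYC gate and 0.839 CPM in the other cells, a ratio of 126, against 173 for C1qc. Fcrl5 had a ratio of 90.3, Negr1, a neuronal adhesion protein, of 82.6, Tcf7l2 of 70.4 and Axl of 66.2. In the control gate Klrb1b was at 6.78 CPM, Negr1 at 54.3 CPM and Tcf7l2 at 330.0 CPM. Fam89a had 0 UMIs in the control gate and 103 CPM in the MYC gate, at least 15.1-fold higher.

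Transcripts of other lineages were present in the gated cells of both libraries. Haemoglobin made up at least 5% of UMIs in 4 control and 13 MYC-library cells. Neutrophil genes summed to 6144 CPM in control cells against 7431 CPM in the MYC gate, with 2 of 17 at least 2-fold higher and 0 lower. The list holds S100a8 and S100a9, which the rule of the gate limits, so its sum is fixed in part by the rule. In MYC-library Fcgr4 cells S100a8 and S100a9 were at 2015 and 2948 CPM of a list sum of 7127 CPM. B lineage genes summed to 1381 and 1192 CPM, and the T or NK list to 45.2 and 27.5 CPM, with Cd3d, Cd3e, Trac and Trbc2 at 0 in the control. Erythroid genes summed to 11741 and 10350.0 CPM. A limit of under 3 UMIs over 12 genes of other lineages left 42 control and 279 MYC-library cells. In those the resident median was -1.47 and the MHC II median -3.95.

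Clustering of the gated cells of both libraries gave 7 clusters that crossed these sets only in part. The cluster led by Fcna, Vcam1 and Slc40a1 held 36 control and 13 MYC-library cells, 32 of them Vcam1 cells. The cluster led by Ccr2 and Fn1 held 25 and 24, 29 of them Ccr2 cells. Mpo and Elane of the neutrophil list were also among its leading genes. They were at 685 and 479 CPM there, against 58.3 and 40.8 CPM in the other gated cells. The clusters led by Scel, and by Bcl11a and Dusp12, held 1 control and 146 MYC-library cells and 0 and 152, and Fcgr4 cells made up 137 and 132 of them. These are descriptions of genes that also made the clusters.

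Cells near the limits of the gate were counted. Between 10 and 12 C1q UMIs per 10000 lay 2 control and 13 MYC-library cells, and between 8 and 10, just outside, 2 and 9. The lowest gated values were 11.5 and 10.2 per 10000, and the highest values just outside, among cells with at least 3 C1q UMIs, were 8.47 and 9.98. Exactly 3 C1q UMIs were found in 3 control and 24 MYC-library gated cells. Just outside lay 2 and 21 cells with 2 C1q UMIs at 10 or more per 10000, and 16 and 46 with at least 3 UMIs under 10 per 10000. The gated cells had medians of 46.5 and 47.4 C1q UMIs per 10000.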

How the data were processed

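The deposited files hold raw UMI counts per gene and barcode for 2 mouse bone marrow libraries, and per the file headers Cell Ranger 6.0.0 wrote them. The submitters' processing notes also name Seurat and GRCm38 (mm10). The counts cover 32286 features and were used as deposited, with no correction for free RNA.

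Within each group, counts of a gene were added up and divided by all UMIs of the group (CPM). Levels have exact Poisson and shares exact Clopper-Pearson 95% intervals. Ratios have conditional binomial intervals, and list ratios use a pseudocount of 1 CPM. Genes with at least 50 UMIs over both libraries were compared and counted as higher or lower at 2-fold. A floor of 3 counts stands for 0. Classical monocytes were other kept cells with at least 3 UMIs and 10 per 10000 of Ly6c2, Ccr2 and F13a1, and nonclassical ones the same of Ace, Adgre4, Treml4 and Cd300e. Members and lists were chosen with earlier results of these data known. Named genes are list genes, the 12 highest and 12 lowest ratios at a mean of 100 CPM or more, and the 15 most like C1q. Other named genes were chosen after their values were seen. Doublets were not removed: Scrublet called 670 kept control cells and 0 in the MYC library, so its calls were not used. Clustering used 1500 variable genes, 15 components, 15 neighbours and a resolution of 0.6. Python 3.11.15, numpy 2.4.6, scipy 1.17.1, pandas 2.3.3 and scanpy 1.11.5 were used. The summing and the ratios were tested on simulated data. Depth per library and the limits of 1 library per group are given above.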

Additional observations from a re-analysis of the deposited data

Results flagged for a closer look

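Barcodes that met the C1q limits but failed another limit of the gate were found in both libraries. With 10% or more mitochondrial UMIs there were 54 in the MYC library and 10 in the control. A Fcgr4 UMI was found in 41 of the 54 and 4 of the 10, and a Vcam1 UMI in 13 and 7. Under 1000 UMIs there were 12 in the MYC library and 4 in the control, of which 2 and 3 had a Vcam1 UMI. With 5% or more of S100a8 and S100a9 UMIs there were 34 in the MYC library and 1 in the control. Of the 34, 31 had a Fcgr4 UMI and 27 a Cd300e UMI. These barcodes enter no comparison above.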

How the results depend on the processing

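Of the alternatives to the gate and the values, 156 results for shares, gene counts and list medians stayed within their limits and 19 moved. Of the results for 76 single genes, 761 stayed, 149 moved and 2 were reversed. The difference in gate share of 4.18 percentage points was 3.17 with at least 10 C1q UMIs and 20 per 10000, 2.33 without cells holding 3 UMIs of other lineages, and 1.58 with a Vcam1 or Adgre1 UMI required. Without cells holding other-lineage UMIs the MHC II median was -3.95, the resident median -1.47 and the number of lower genes 332. With a Vcam1 or Adgre1 UMI required the medians were -3.04 for MHC II, -1.44 for resident and -0.80 for lysosome genes. The MHC II median was -3.92 under 5% mitochondrial UMIs, -3.67 with the other denominator and -3.34 without the highest 10% of Scrublet scores, an alternative chosen after seeing the data. At 20 UMIs there were 1368 higher and 1099 lower genes, with an efferocytosis median of -1.33. With no filter there were 2311 and 2218, with medians of -1.79 for efferocytosis and -2.57 for MHC II. Isg15, at a log2 ratio of 0.83, was at -0.044 without other-lineage UMIs and at -0.26 with the macrophage marker required. The cause was not tested. The alternative without Scrublet calls was not run. No paired analysis was possible because each group had 1 library and the labels give no replicate numbers.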
